A study of Mus musculus with 6 samples.

Results

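The genes described are 54 markers of lymphocytes, chosen by name: 17 T cell genes, 11 genes of natural killer (NK) and cytotoxic cells, 7 B cell genes, 5 genes of B cell precursors, 10 immunoglobulin constant genes, 3 plasma cell genes and *Ptprc* (CD45), which all leukocytes express. All 54 were found among the 31950 genes measured. RNA-seq compared livers of 3 WT and 3 β-cateninΔ(ex3)/+ C57BL/6 mice, all labelled as 8 weeks old, with 1 library per liver. In β-cateninΔ(ex3)/+ mice 1 *Ctnnb1* allele lacks exon 3, which holds the phosphorylation sites that mark β-catenin for degradation, so the protein made is stabilised. The study describes livers of this genotype made with a tamoxifen-activated Cre driven by the albumin promoter, which is active in hepatocytes and not in lymphocytes; the labels do not name the Cre, and whether WT mice received tamoxifen is not stated. No source used here gives the sex.

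B cells are made from precursors that join V, D and J segments with the RAG1 and RAG2 recombinases and display the new heavy chain with a surrogate light chain, encoded by *Vpreb1* and *Igll1*. This happens in bone marrow in adult mice and in the liver before and shortly after birth. A newly made B cell carries IgM and IgD; after activation it can switch its heavy chain to a downstream constant gene (the γ or α genes, for IgG and IgA) and become a plasma cell that secretes antibody. T cells are defined by the CD3 complex and the T cell receptor, and adult liver holds resident T, NK and NKT cells among its hepatocytes.

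Values are FPKM, the fragments of a gene per kilobase of its transcripts, scaled to all mapped fragments of the library, which can be compared between genes. Depth, estimated from the steps between low values, was 24.4 to 24.7 M fragments in WT and 16.9 to 19.5 M in β-cateninΔ(ex3)/+ libraries. Only 24.7% to 25.9% of low values in WT and 19.5% to 22.3% in β-cateninΔ(ex3)/+ libraries lay on a step, so these depths are approximate. A gene "rose" or "fell" where limma gave a Benjamini-Hochberg adjusted p under 0.05 and a difference of at least 2-fold on the log2(FPKM + 1) scale, which understates changes of genes with low FPKM. Of the 13243 genes tested, those with a mean of at least 0.5 FPKM, 8.17% rose and 4.52% fell in β-cateninΔ(ex3)/+ livers, and their median difference was 0.14. *Ctnnb1* itself differed by -0.097 (adjusted p = 0.0935), and values per gene do not show whether an exon is missing. *Glul* and *Axin2*, known targets of β-catenin in liver, rose by 2.59 and 1.86.

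The groups also differed in genes that the labels do not explain. *Xist*, transcribed from the inactive X chromosome, had 20.3 to 22.2 FPKM in WT and at most 0.0146 FPKM in β-cateninΔ(ex3)/+ livers, and the Y-linked *Eif2s3y* had at most 0.0169 FPKM in WT and 9.20 to 9.94 FPKM in β-cateninΔ(ex3)/+ livers, so sex and genotype cannot be told apart. *Afp*, *H19*, *Igf2*, *Dlk1* and *Gpc3*, which are high in fetal and newborn liver and low in adult liver, were all lower in β-cateninΔ(ex3)/+ livers. *Afp* had 601 to 612 FPKM in the WT livers labelled as 8 weeks old and 2.38 to 2.81 FPKM in β-cateninΔ(ex3)/+ livers. Beside them, 13 of 15 granulocyte markers were lower in every β-cateninΔ(ex3)/+ liver, with a summed level of 365 to 389 FPKM in WT and 59.6 to 62.2 FPKM in β-cateninΔ(ex3)/+ livers, and *Ly6g* and *Fcnb* were listed at 0 in all β-cateninΔ(ex3)/+ livers. Of 13 erythroid markers measured, 12 were lower in every β-cateninΔ(ex3)/+ liver (3329 to 3672 against 1817 to 1881 FPKM summed). Of 15 Kupffer cell and monocyte markers, 12 were higher (478 to 495 against 1090 to 1101 FPKM). Summed levels of other cell types moved too, from 71.4 to 77.1 FPKM in WT to 533 to 550.4 FPKM in β-cateninΔ(ex3)/+ livers for 10 dendritic cell markers, nearly all of it *Bst2*, and from 29.1 to 31.8 to 5.71 to 6.70 FPKM for 13 megakaryocyte and progenitor markers. All 10 stellate and fibroblast markers (138 to 141 against 39.7 to 47.1 FPKM) and all 8 endothelial markers (97.01 to 98.5 against 64.3 to 66.8 FPKM) were lower in every β-cateninΔ(ex3)/+ liver, and the 9 hepatocyte markers measured summed to 74410 to 77636 against 40427 to 40737 FPKM. Over the 26528 genes above 0 in any liver, 27.0% were higher and 17.8% lower in every β-cateninΔ(ex3)/+ liver. The part of sex, of the genes of young liver and of these other cell types in the results that follow was not tested.

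Of the 54 lymphocyte genes, 36 reached the level for testing, 7 rose (*Igha*, *Ighg2c*, *Jchain*, *Ighg2b*, *Igkc*, *Cd8b1* and *Trac*) and 4 fell (*Vpreb3*, *Ighm*, *Cd79a* and *Cd79b*). Those that rose encode class-switched heavy chains (*Igha*, *Ighg2c*, *Ighg2b*), the κ light chain (*Igkc*), the antibody-joining chain (*Jchain*), a CD8 chain (*Cd8b1*) and a T cell receptor chain (*Trac*), and those that fell encode the μ heavy chain (*Ighm*), both signalling chains of the B cell receptor (*Cd79a*, *Cd79b*) and a protein of B cell precursors (*Vpreb3*). At an adjusted p under 0.05 alone, 18 of the 36 were higher and 10 lower, where 37.4% and 19.6% of all genes tested were; of these 28, *Trbc1*, *Nkg7* and *Xcl1* lost it with median-ratio scaling and quantile normalization. Over all 54, every β-cateninΔ(ex3)/+ liver was above every WT liver for 27 and below for 19, against 27.0% and 17.8% of the 26528 genes above 0 in any liver. The groups overlapped for 8. The same shares over all genes are to be read beside the counts without overlap given by list below. A low gene that reached the level for testing through 1 group alone had to differ. These counts, and the p-values of such genes, are therefore descriptions. Tested genes with a WT mean under 0.5 FPKM were *Igha*, *Ighg2c*, *Ighg2b*, *Jchain*, *Cd8b1*, *Cd8a*, *Cd4* and *Cd22*. Those with a β-cateninΔ(ex3)/+ mean under 0.5 FPKM were *Vpreb3*, *Vpreb1*, *Blk*, *Ccr7* and *Klrd1*. The 18 genes below the level are given by their values. In bulk tissue, fewer cells of a type and less RNA per cell cannot be told apart.

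**Figure D1:**
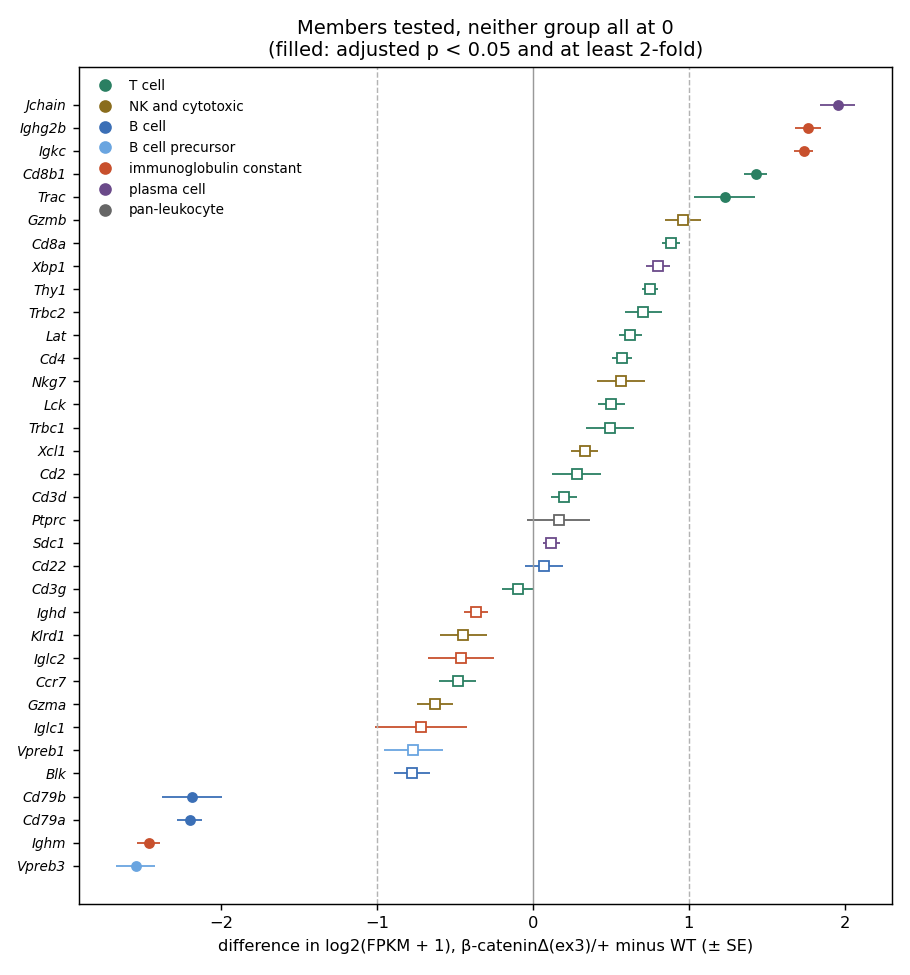
Difference in log2(FPKM + 1), β-cateninΔ(ex3)/+ minus WT, with its standard error, for the 34 lymphocyte genes tested that were above 0 in both groups; filled circles passed both thresholds and open squares did not. *Jchain* (1.96), *Ighg2b* (1.77) and *Igkc* (1.74) are at the top and *Vpreb3* (-2.55), *Ighm* (-2.47), *Cd79a* (-2.20) and *Cd79b* (-2.19) at the bottom, with most T cell genes between 0 and 1.

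The 5 genes of B cell precursors were all lower in every β-cateninΔ(ex3)/+ liver than in any WT liver, and 3 of them were listed at 0 there. The promoters of *Vpreb1*, *Igll1*, *Vpreb3* and *Cd79a*, which is made from the precursor stage on, are shown because these genes share low values in β-cateninΔ(ex3)/+ livers; those of *Rag1* and *Rag2* were searched but are not printed. Each line gives the 250 bases before the RefSeq start on GRCm38.p6, 5′ to 3′ on the gene's strand, and capitals mark matches to a motif searched on both strands. *Vpreb1* lies at chr16:16869256-16869505 (minus strand), *Igll1* at chr16:16863986-16864235 (minus strand), *Vpreb3* at chr10:75948050-75948299 (plus strand) and *Cd79a* at chr7:24897247-24897496 (plus strand). The genes as measured can start elsewhere. *Vpreb3* was measured over 75943057 to 75949657 and *Vpreb1* over 16868403 to 16870843, so both windows lie inside the measured gene. The *Cd79a* window runs past its measured start at 24897381.
Vpreb1: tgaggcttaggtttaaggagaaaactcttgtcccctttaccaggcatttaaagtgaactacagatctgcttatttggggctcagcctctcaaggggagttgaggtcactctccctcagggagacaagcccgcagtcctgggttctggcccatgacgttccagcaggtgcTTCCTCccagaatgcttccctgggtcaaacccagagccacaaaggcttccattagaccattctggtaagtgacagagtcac
Igll1: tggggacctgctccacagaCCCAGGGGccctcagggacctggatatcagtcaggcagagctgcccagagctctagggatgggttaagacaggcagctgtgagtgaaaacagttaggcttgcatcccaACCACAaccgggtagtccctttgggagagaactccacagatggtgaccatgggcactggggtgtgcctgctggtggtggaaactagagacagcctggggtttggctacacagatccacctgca
Vpreb3: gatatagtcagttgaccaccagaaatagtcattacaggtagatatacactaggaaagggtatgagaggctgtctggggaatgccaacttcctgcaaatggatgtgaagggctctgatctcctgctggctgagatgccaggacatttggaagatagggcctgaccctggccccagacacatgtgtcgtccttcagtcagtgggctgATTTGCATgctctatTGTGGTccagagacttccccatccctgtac
Cd79a: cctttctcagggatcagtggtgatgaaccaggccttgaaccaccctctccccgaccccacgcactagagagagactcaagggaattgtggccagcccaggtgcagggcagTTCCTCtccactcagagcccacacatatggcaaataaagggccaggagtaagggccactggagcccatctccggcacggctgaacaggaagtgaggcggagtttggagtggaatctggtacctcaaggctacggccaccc

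The motifs were the core of EBF (CCCNNGGG), the octamer bound by Oct proteins (ATGCAAAT), the core of PU.1 (GAGGAA) and the core of RUNX (TGTGGT), all families with known roles in lymphocyte development. The *Vpreb3* promoter held the octamer, which began 45 bases before the start, and a RUNX match 30 bases before it. The *Igll1* promoter held an EBF match 231 and a RUNX match 123 bases before the start. *Cd79a* and *Vpreb1* each held a PU.1 match, 140 and 81 bases before the start. *Rag1* held RUNX matches 81 and 67 bases before its start and *Rag2* a PU.1 match 97 bases before its start. No 2 of these matches overlap. Over all 32851 promoters of this length, 11.8% held the EBF core, 1.60% the octamer, 23.3% the PU.1 core and 14.0% the RUNX core. Among 37 promoters of 32 of the lymphocyte genes, some with more than 1 start, the numbers were 4, 1, 12 and 13. The windows of *Ncr1* and of *Ptprc* overlap, and those of *Lck*, *Ebf1* and *Foxp3* lie apart. The letters describe the sequence and do not show binding.

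Values by liver follow the replicate numbers. *Vpreb3*, which binds newly made immunoglobulin chains in precursors, had 5.65, 5.81 and 6.46 FPKM in the WT livers, against 0.244, 0 and 0.355 FPKM in the β-cateninΔ(ex3)/+ livers. It reached the level for testing through the WT livers alone, so its adjusted p is a description. It fell by 2.55 (standard error 0.125, limma adjusted p = 1.53e-05), the largest decrease among the 36 genes in this fit; with quantile normalization *Ighm* fell slightly more (-2.70 against -2.69). *Vpreb1*, the V-like part of the surrogate light chain, had 0.613, 0.6743 and 1.57 FPKM in WT and 0.175, 0.0660 and 0.126 FPKM in β-cateninΔ(ex3)/+ livers. WT replicate 3 stood above the other WT livers, and the difference of -0.77 (limma adjusted p = 0.0146) did not reach 2-fold; *Vpreb1* lies within *Top3b* on the opposite strand, which had 2.27 to 2.79 FPKM in the 6 livers. *Igll1* (λ5), the constant-like part of the surrogate light chain and a near neighbour of *Vpreb1* on chromosome 16, had 0.842, 1.11 and 0.852 FPKM in WT livers and was listed at 0 in the 3 β-cateninΔ(ex3)/+ livers. The recombinase gene *Rag1* had 0.305, 0.429 and 0.395 FPKM in WT livers and was also listed at 0 in all β-cateninΔ(ex3)/+ livers. Its neighbour *Rag2* had 0.242, 0.0880 and 0.208 FPKM in WT livers and was listed at 0 in the β-cateninΔ(ex3)/+ livers as well. Both *Rag* genes overlap *B230118H07Rik*, which had 1.41 to 2.57 FPKM in the 6 livers. The summed level of the 5 genes was 7.66 to 9.49 FPKM in WT and 0.0660 to 0.481 FPKM in β-cateninΔ(ex3)/+ livers. The β-cateninΔ(ex3)/+ libraries were the shallower ones by the estimate, which bears on values listed at 0 there.

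Of the 7 B cell genes, 6 were lower in every β-cateninΔ(ex3)/+ liver and 2 fell. *Cd79a* (Igα, chromosome 7 from 24897381 to 24902197 in the deposited table), the signalling chain that carries the B cell receptor, had 10.4, 9.64 and 11.1 FPKM in WT and 1.40, 1.69 and 1.34 FPKM in β-cateninΔ(ex3)/+ livers, a 7.04-fold lower mean. Its difference was -2.20 (standard error 0.079, limma adjusted p = 4.28e-06). *Cd79b* (Igβ, chromosome 11 from 106311341 to 106314762), its partner, had 10.02, 11.4 and 10.7 FPKM in WT and 2.16, 0.905 and 1.81 FPKM in β-cateninΔ(ex3)/+ livers, and fell by 2.19 (standard error 0.191, limma adjusted p = 0.000185). Both chains of this heterodimer were at similar levels within each group.

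The other B cell genes were at or below about 1 FPKM. *Blk*, a Src-family kinase of B cells, had 0.965, 0.694 and 1.10 FPKM in WT and 0.149, 0.209 and 0 FPKM in β-cateninΔ(ex3)/+ livers, a difference of -0.78 (limma adjusted p = 0.00183) that did not reach 2-fold. *Pax5*, the transcription factor that commits cells to the B lineage, had 0.617, 0.568 and 0.887 FPKM in WT and 0.0877, 0.0131 and 0.0562 FPKM in β-cateninΔ(ex3)/+ livers. *Ebf1*, which acts before and with PAX5, had 0.208, 0.238 and 0.297 FPKM in WT and 0.0463, 0.0303 and 0.0258 FPKM in β-cateninΔ(ex3)/+ livers. These transcription factor genes were thus low in both groups, without overlap between them. *Ms4a1* (CD20), a marker of mature B cells, had 0.444, 0.556 and 0.451 FPKM in WT and 0.120, 0.0979 and 0.0852 FPKM in β-cateninΔ(ex3)/+ livers. *Cd22*, an inhibitory receptor of mature B cells, had 0.335 to 0.778 FPKM over the 6 livers and overlapped between the groups (difference 0.072, limma adjusted p = 0.644; the sign turned under quantile normalization, at -0.00107). *Cd22* was the one B cell gene whose groups overlapped.

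**Figure D2:**
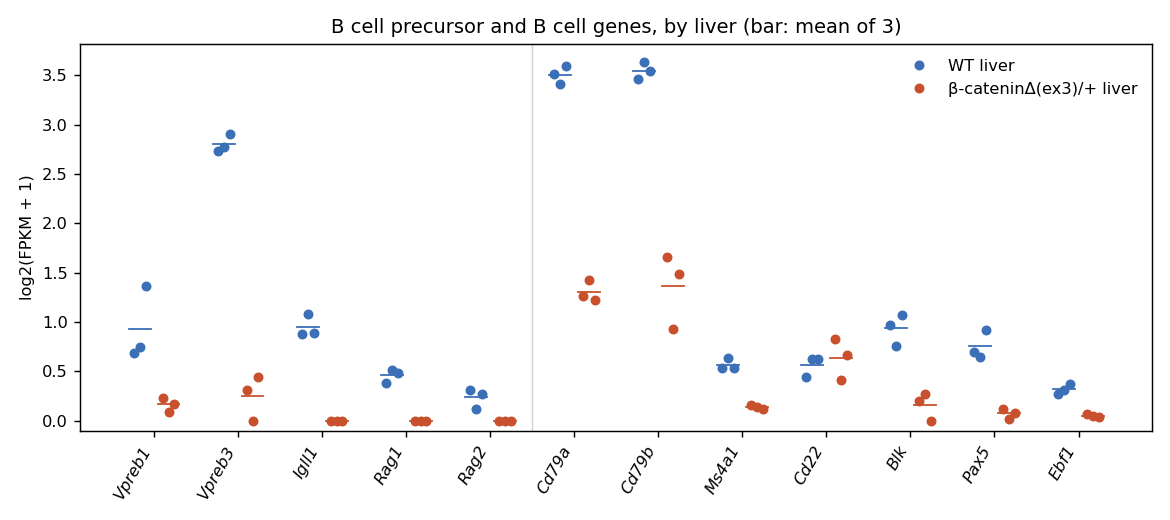
log2(FPKM + 1) of the 5 B cell precursor genes (left of the line) and 7 B cell genes (right) in each liver, with a bar at the mean of 3. All but *Cd22* lie lower in each β-cateninΔ(ex3)/+ liver than in any WT liver, and *Igll1*, *Rag1* and *Rag2* are at 0 in all 3.

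The immunoglobulin heavy-chain constant genes differed in opposite directions by their place in the locus on chromosome 12. *Ighm*, the first of the constant genes in the direction of transcription (113418558 to 113422730, minus strand), had 27.5, 26.7 and 24.9 FPKM in WT and 4.30, 3.52 and 4.07 FPKM in β-cateninΔ(ex3)/+ livers. It fell by 2.47 (standard error 0.076, limma adjusted p = 2.25e-06), and its mean was 6.65-fold lower. *Ighd*, the next gene, which is made with *Ighm* by alternative splicing, had 1.81, 2.06 and 1.60 FPKM in WT and 1.25, 1.13 and 1.20 FPKM in β-cateninΔ(ex3)/+ livers, a difference of -0.36 (limma adjusted p = 0.00833).

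All 5 constant genes farther downstream were higher in every β-cateninΔ(ex3)/+ liver. *Ighg3*, the first of them, was listed at 0 in the 3 WT livers and had 0.848, 0.560 and 0.873 FPKM in β-cateninΔ(ex3)/+ livers. *Ighg1* had 0.0153, 0 and 0 FPKM in WT and 0.182, 0.474 and 0.420 FPKM in β-cateninΔ(ex3)/+ livers. *Ighg2b* had 0.0151, 0 and 0.0153 FPKM in WT and 2.82, 2.34 and 2.18 FPKM in β-cateninΔ(ex3)/+ livers and rose by 1.77 (standard error 0.083, limma adjusted p = 1.30e-05). *Ighg1* and *Ighg3* encode IgG1 and IgG3, and neither reached the level for testing. *Ighg2c* (113285325 to 113288932), which encodes the IgG2c made by C57BL/6 mice, was listed at 0 in all WT livers and had 14.9, 14.5 and 14.5 FPKM in β-cateninΔ(ex3)/+ livers (limma adjusted p = 5.54e-08). *Igha* (113254830 to 113260236), for IgA, the last gene of the locus, was listed at 0 in all WT livers and had 12.2, 12.8 and 12.9 FPKM in β-cateninΔ(ex3)/+ livers (limma adjusted p = 7.44e-08). *Ighg2b*, *Ighg2c* and *Igha* reached the level for testing through the β-cateninΔ(ex3)/+ livers alone, so their adjusted p-values are descriptions. The WT libraries in which *Ighg3*, *Ighg2c* and *Igha* were at 0 were the deeper ones by the estimate. The transcripts of *Ighg2b* and *Ighg2c* were 86.5% identical over 1119 aligned bases, so some of their fragments may be assigned to either.

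As a share of all heavy-chain constant FPKM, the class-switched genes (γ and α) made up 0.104%, 0% and 0.0577% in the WT livers and 84.8%, 86.9% and 85.4% in the β-cateninΔ(ex3)/+ livers. *Ighm* made up 92.8% to 93.9% in WT and 9.96% to 11.8% in β-cateninΔ(ex3)/+ livers. Within β-cateninΔ(ex3)/+ livers *Ighg2c* was the largest share, at 40.1% to 41.1%, and *Igha* followed with 33.5% to 36.2%. Their ranges did not overlap. The summed heavy-chain level differed much less than its composition, with 26.5 to 29.4 FPKM in WT and 35.3 to 36.5 FPKM in β-cateninΔ(ex3)/+ livers. An exact permutation test of 3 livers against 3 cannot give a p below 0.1, which every gene without overlap reaches.

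**Figure D3:**
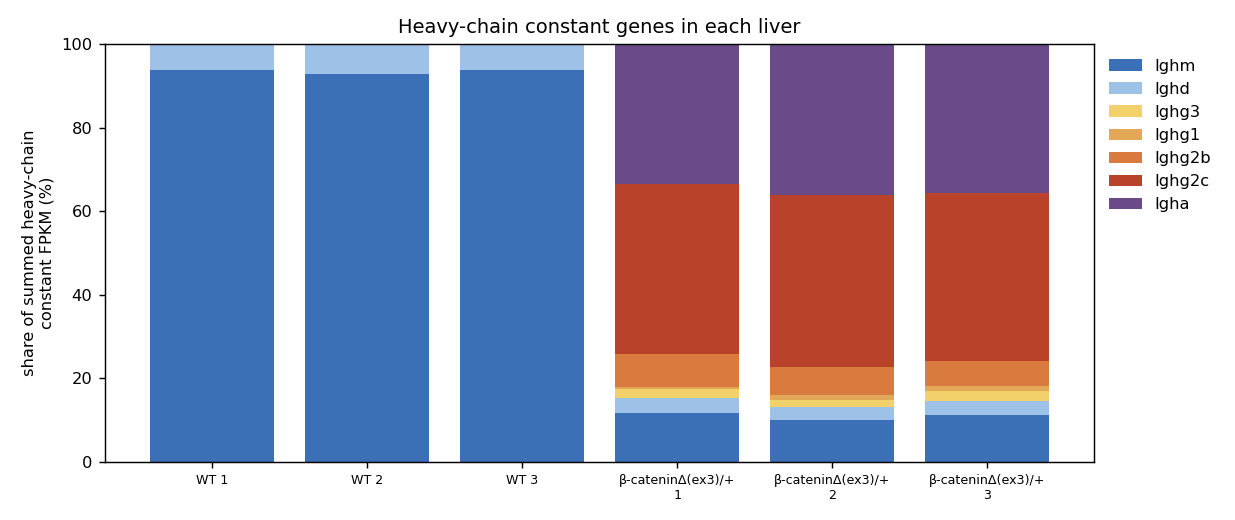
Share (%) of the summed FPKM of 7 heavy-chain constant genes taken by each gene, in each of the 6 livers, in the order of the locus from *Ighm* to *Igha*. *Ighm* and *Ighd* fill the WT bars, and *Ighg2c* and *Igha* are the largest parts of the β-cateninΔ(ex3)/+ bars.

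Of the light-chain constant genes among those described, the κ gene rose and neither λ gene passed the test. *Igkc* (chromosome 6 from 70726435 to 70726966), the single κ constant gene, had 23.8, 25 and 22.4 FPKM in WT and 76.6, 81.5 and 86.4 FPKM in β-cateninΔ(ex3)/+ livers. It rose by 1.74 (standard error 0.062, limma adjusted p = 4.13e-06), a 3.43-fold higher mean. *Iglc1* had 1.83, 5.15 and 3.03 FPKM in WT and 1.15, 1.41 and 2.04 FPKM in β-cateninΔ(ex3)/+ livers, and its groups overlapped (difference -0.72, limma adjusted p = 0.0821); leaving out WT replicate 2 gave -0.43, and leaving out WT replicate 1 gave -0.99 (limma adjusted p = 0.0214). *Iglc2* had 1.82, 2.02 and 1.94 FPKM in WT and 0.546, 1.79 and 1.22 FPKM in β-cateninΔ(ex3)/+ livers (difference -0.46, limma adjusted p = 0.108); it was -0.23 without β-cateninΔ(ex3)/+ replicate 1 and -0.66 without β-cateninΔ(ex3)/+ replicate 2 (limma adjusted p = 0.0253). *Iglc2* is 94.9% identical to *Iglc3* over 454 bases, so its values are uncertain. *Iglc3*, a λ constant gene of the wider lists given below, fell past both thresholds. For shares, *Iglc3* was summed with *Igkc*, *Iglc1* and *Iglc2*. The κ share of this sum was 71.5% to 77.0% in WT and 95.0% to 96.7% in β-cateninΔ(ex3)/+ livers. The same light-chain sum was 1.05 to 1.21 times the summed heavy chains in WT and 2.17 to 2.52 times in β-cateninΔ(ex3)/+ livers.

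*Jchain*, which joins IgM and IgA into polymers and is made by antibody-secreting cells, had 0.0805, 0.183 and 0.112 FPKM in WT and 3.90, 3.56 and 2.71 FPKM in β-cateninΔ(ex3)/+ livers. It rose by 1.96 (standard error 0.115, limma adjusted p = 3.39e-05), and its mean was 27.0-fold higher. *Jchain* reached the level for testing through the β-cateninΔ(ex3)/+ livers alone, so this adjusted p is a description. *Xbp1*, a transcription factor of the secretory programme in plasma cells and in hepatocytes, had 13.4, 12.6 and 14.9 FPKM in WT and 25.9, 24.8 and 22.9 FPKM in β-cateninΔ(ex3)/+ livers, a difference of 0.80 (limma adjusted p = 0.000262) that did not reach 2-fold. *Sdc1* (CD138), a surface marker of plasma cells that hepatocytes also make, had 52.9, 47.4 and 52.9 FPKM in WT and 55.7, 57.2 and 53.6 FPKM in β-cateninΔ(ex3)/+ livers, a difference of 0.12 (limma adjusted p = 0.113) that turned to -0.071 with median-ratio scaling and to -0.16 with quantile normalization. The 3 plasma cell genes thus ranged from below 1 FPKM to over 50 FPKM in WT livers. In the WT livers, where class-switched heavy chains were at or near 0, *Xbp1* and *Sdc1* were both above 10 FPKM.

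**Figure D4:**
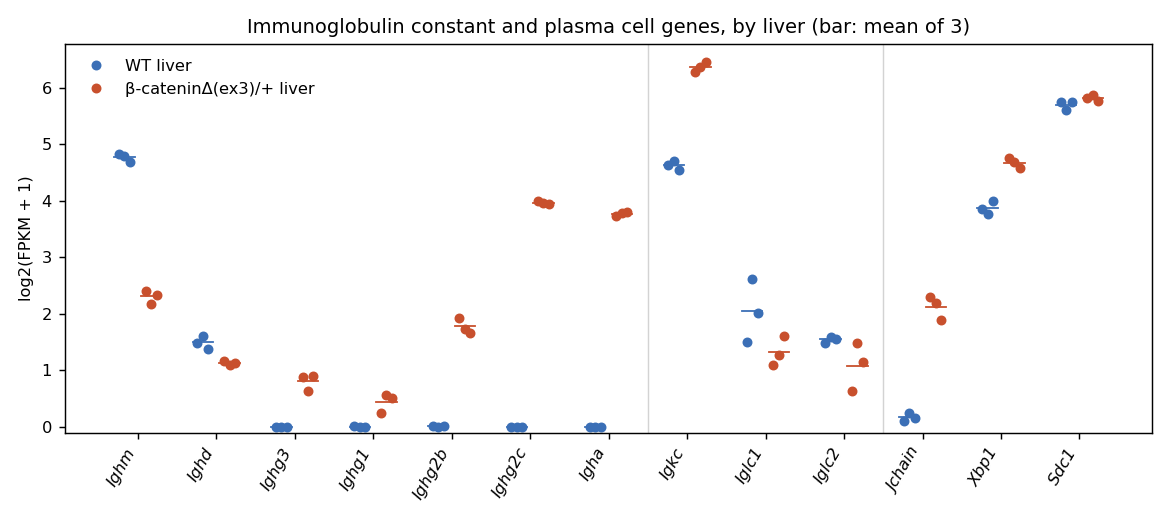
log2(FPKM + 1) of the heavy-chain constant genes in locus order (left), the light-chain constant genes (middle) and 3 plasma cell genes (right) in each liver, with a bar at the mean of 3. *Ighm* is higher in WT livers, and the 5 downstream heavy-chain genes, *Igkc* and *Jchain* are higher in β-cateninΔ(ex3)/+ livers.

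Of the 17 T cell genes, 11 were higher and 2 lower in every β-cateninΔ(ex3)/+ liver, and 2 of the 13 tested rose. *Trac*, the constant part of the T cell receptor α chain, had 1.08, 1.17 and 0.388 FPKM in WT and 3.33, 3.95 and 2.78 FPKM in β-cateninΔ(ex3)/+ livers, and rose by 1.23 (standard error 0.198, limma adjusted p = 0.00267). *Cd8b1*, the β chain of the CD8 co-receptor of cytotoxic T cells, had 0.298, 0.124 and 0.252 FPKM in WT and 2.29, 2.31 and 2.29 FPKM in β-cateninΔ(ex3)/+ livers, and rose by 1.43 (standard error 0.073, limma adjusted p = 1.81e-05), with a 10.2-fold higher mean. The β-cateninΔ(ex3)/+ livers were nearly alike in *Cd8b1*, and all lay well above the WT livers. *Cd8b1* reached the level for testing through the β-cateninΔ(ex3)/+ livers alone, so its adjusted p is a description. *Cd8a*, its partner, which lies next to it on chromosome 6, had 0.276, 0.256 and 0.197 FPKM in WT and 1.31, 1.27 and 1.31 FPKM in β-cateninΔ(ex3)/+ livers. Its difference of 0.89 (limma adjusted p = 5.24e-05) did not reach 2-fold on this scale, while the ratio of its means was 5.34. *Cd4*, the co-receptor of helper T cells, had 0.255, 0.271 and 0.351 FPKM in WT and 1.01, 0.894 and 0.857 FPKM in β-cateninΔ(ex3)/+ livers, a 3.14-fold ratio and a difference of 0.57 (limma adjusted p = 0.00063).

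The β chain and CD3 genes did not reach 2-fold or were too low for testing. *Trbc1*, a β chain constant gene, had 2.95, 2.18 and 3.43 FPKM in WT and 4.98, 3.66 and 4.60 FPKM in β-cateninΔ(ex3)/+ livers (difference 0.50, limma adjusted p = 0.0328), and missed an adjusted p under 0.05 with median-ratio scaling (0.0962), quantile normalization (0.131), no expression filter (0.0602) and in 4 of 6 fits that left out a liver. *Trbc2*, the other one, had 5.24, 4.40 and 3.60 FPKM in WT and 8.26, 7.52 and 7.58 FPKM in β-cateninΔ(ex3)/+ livers (difference 0.71, limma adjusted p = 0.00294). The transcripts of both are 95.9% identical over 508 bases, so the split between them is uncertain. *Cd3d* had 0.790, 0.849 and 0.610 FPKM in WT and 1.17, 0.911 and 0.951 FPKM in β-cateninΔ(ex3)/+ livers (difference 0.20, limma adjusted p = 0.0909). *Cd3e* had 0.157, 0.254 and 0.204 FPKM in WT and 0.504, 0.474 and 0.529 FPKM in β-cateninΔ(ex3)/+ livers, below the level for testing. *Cd3g* ranged from 0.671 to 1.07 FPKM and *Cd247* (CD3ζ) from 0.0861 to 0.363 FPKM, each with overlap between groups. These chains form the CD3 complex, and no test compared them with each other.

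Of the signalling and surface genes, *Thy1*, a surface protein of mouse T cells also found on other cells, had 0.854, 0.916 and 0.899 FPKM in WT and 2.18, 2.15 and 2.23 FPKM in β-cateninΔ(ex3)/+ livers, a difference of 0.75 (limma adjusted p = 6.93e-05). *Lck*, the kinase that acts first at the receptor, had 0.949, 1.02 and 0.8004 FPKM in WT and 1.48, 1.85 and 1.86 FPKM in β-cateninΔ(ex3)/+ livers (difference 0.50, limma adjusted p = 0.00322). *Lat*, the adaptor downstream of it, had 0.570, 0.427 and 0.521 FPKM in WT and 1.17, 1.44 and 1.36 FPKM in β-cateninΔ(ex3)/+ livers (difference 0.63, limma adjusted p = 0.000713). These 3 genes were higher in every β-cateninΔ(ex3)/+ liver without reaching 2-fold on the log2(FPKM + 1) scale. *Ccr7*, the receptor that guides naive T cells and B cells to lymph nodes, went the other way, with 0.595, 1.04 and 0.763 FPKM in WT and 0.180, 0.412 and 0.259 FPKM in β-cateninΔ(ex3)/+ livers (difference -0.48, limma adjusted p = 0.0142). *Il7r*, the interleukin-7 receptor of B cell precursors and naive and memory T cells, had 0.301, 0.684 and 0.403 FPKM in WT and 0.105, 0.202 and 0.161 FPKM in β-cateninΔ(ex3)/+ livers. *Ccr7* and *Il7r* were the T cell genes that were lower in every β-cateninΔ(ex3)/+ liver. *Cd2*, an adhesion receptor, and *Foxp3*, the factor of regulatory T cells, overlapped between the groups, at 0.546 to 1.39 and 0 to 0.102 FPKM. *Foxp3* lies on the X chromosome and overlaps *Ccdc22* on the opposite strand, which had 2.55 to 3.75 FPKM. The 17 T cell genes summed to 13.9 to 16.7 FPKM in WT and 28.9 to 30.5 FPKM in β-cateninΔ(ex3)/+ livers.

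**Figure D5:**
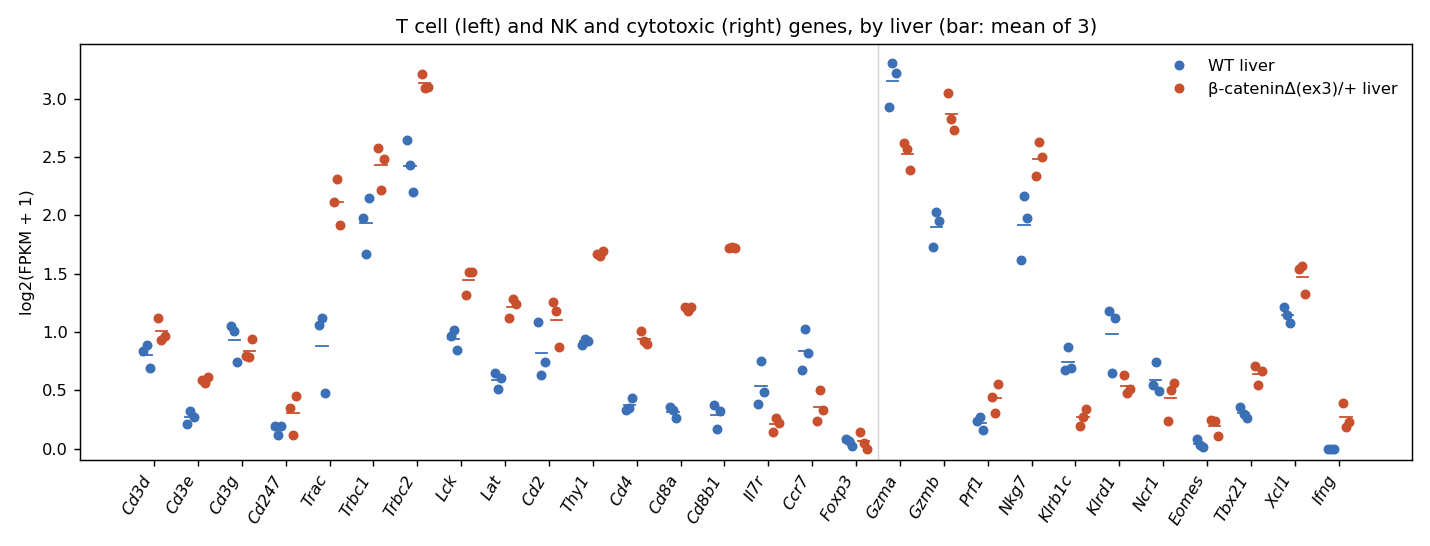
log2(FPKM + 1) of 17 T cell genes (left of the line) and 11 NK and cytotoxic genes (right) in each liver, with a bar at the mean of 3. *Cd8b1*, *Cd8a*, *Thy1* and *Gzmb* are higher in every β-cateninΔ(ex3)/+ liver, and *Il7r*, *Ccr7*, *Gzma*, *Klrb1c* and *Klrd1* are lower in every one.

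The NK and cytotoxic genes were split: 7 of 11 were higher and 3 lower in every β-cateninΔ(ex3)/+ liver, and 0 of the 5 tested passed both thresholds in limma, although all 5 had an adjusted p under 0.05 and so an unadjusted p under 0.05. *Nkg7* and *Xcl1* missed it with median-ratio scaling (0.0696 and 0.0784) and quantile normalization (0.0823 and 0.0690), and *Klrd1* with no expression filter (0.0845) and in 5 of 6 fits that left out a liver. The granzymes, proteases of cytotoxic granules, went in opposite directions. *Gzmb* had 2.32, 3.08 and 2.86 FPKM in WT and 7.28, 6.08 and 5.63 FPKM in β-cateninΔ(ex3)/+ livers, a difference of 0.97 (standard error 0.116, limma adjusted p = 0.000742); it passed 2-fold without WT replicate 2 (1.03) or without β-cateninΔ(ex3)/+ replicate 3 (1.03). *Gzma* had 6.60, 8.87 and 8.32 FPKM in WT and 5.13, 4.92 and 4.22 FPKM in β-cateninΔ(ex3)/+ livers, a difference of -0.63 (standard error 0.118, limma adjusted p = 0.00504). *Gzma* was the most abundant of the 11 genes in WT livers and *Gzmb* in β-cateninΔ(ex3)/+ livers. *Nkg7*, a granule protein, had 2.07, 3.49 and 2.92 FPKM in WT and 4.04, 5.17 and 4.64 FPKM in β-cateninΔ(ex3)/+ livers (difference 0.57, limma adjusted p = 0.0221). *Prf1*, perforin, had 0.180, 0.203 and 0.115 FPKM in WT and 0.357, 0.237 and 0.467 FPKM in β-cateninΔ(ex3)/+ livers.

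Receptors of NK cells were lower or overlapped. *Klrb1c* (NK1.1), which marks NK and NKT cells in C57BL/6 mice, had 0.596, 0.833 and 0.613 FPKM in WT and 0.142, 0.205 and 0.266 FPKM in β-cateninΔ(ex3)/+ livers, a 3.33-fold lower mean. *Klrd1* (CD94) had 1.27, 0.571 and 1.17 FPKM in WT and 0.545, 0.394 and 0.423 FPKM in β-cateninΔ(ex3)/+ livers (difference -0.45, limma adjusted p = 0.0466). *Ncr1* (NKp46) had 0.177 to 0.672 FPKM over the 6 livers, with overlap. Genes of T-box factors and of effector cytokines were higher. *Tbx21* (T-bet) had 0.276, 0.228 and 0.197 FPKM in WT and 0.637, 0.462 and 0.588 FPKM in β-cateninΔ(ex3)/+ livers. *Eomes* had 0.0585, 0.0196 and 0.00985 FPKM in WT and 0.182, 0.178 and 0.0764 FPKM in β-cateninΔ(ex3)/+ livers. Both factors direct effector programmes in NK cells and CD8 T cells, and both stayed under 1 FPKM in every liver. *Xcl1*, a chemokine of activated CD8 T cells and NK cells, had 1.31, 1.21 and 1.11 FPKM in WT and 1.901, 1.95 and 1.51 FPKM in β-cateninΔ(ex3)/+ livers (difference 0.33, limma adjusted p = 0.0176). *Ifng*, interferon γ, was listed at 0 in the 3 WT livers and had 0.309, 0.137 and 0.174 FPKM in β-cateninΔ(ex3)/+ livers. The 11 genes summed to 15.1 to 19.2 FPKM in WT and 18.5 to 20.7 FPKM in β-cateninΔ(ex3)/+ livers, which overlap.

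*Ptprc* had 0.632, 0.701 and 0.6751 FPKM in WT and 1.60, 0.575 and 0.601 FPKM in β-cateninΔ(ex3)/+ livers. A single library, β-cateninΔ(ex3)/+ replicate 1, lay above the rest, and the other β-cateninΔ(ex3)/+ livers lay below all WT livers. The difference of 0.17 (limma adjusted p = 0.517) became -0.072 without that library. Both thresholds were missed with and without it.

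Genes of the same cell types outside the 54 were counted from wider lists, to be read against the 8.17% of all genes tested that rose and the 4.52% that fell. Of 12 further B cell genes tested, 4 fell and 1 rose. Among them *Spib*, a transcription factor, had 3.99 to 4.36 FPKM in WT and 0.241 to 0.401 FPKM in β-cateninΔ(ex3)/+ livers, and *Pou2af1*, a coactivator of octamer-binding factors, and *Fcrla* fell by 1.44 and 1.22, while *Cd72* rose by 1.14. Of 13 further genes of B cell precursors tested, 3 fell and 1 rose. *Cd24a*, which erythroid and granulocyte precursors also express, fell by 2.70, *Sox4* fell by 1.23 and *Cplx2* fell by 1.05, while *Mme*, also made in other tissues, rose by 2.49. Of 9 further genes tested from the plasma cell list, 3 rose and 2 fell. Those that rose are not particular to plasma cells. *Pigr*, the epithelial receptor that carries polymeric IgA, had 0.966 to 1.16 FPKM in WT and 109 to 112 FPKM in β-cateninΔ(ex3)/+ livers. *Creld2* and *Edem1*, of the endoplasmic reticulum, rose by 1.26 and 1.20. *Mzb1*, a chaperone of B cells and plasma cells, and *Iglc3* fell by 1.33 and 1.05. *Tnfrsf17* (BCMA), a receptor of plasma cells, was listed at 0 in all 6 livers.

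Of 10 further T cell genes tested 1 rose, a share near that over all genes: *Zap70*, the kinase recruited to CD3ζ, had 0.377 to 0.679 FPKM in WT and 4.46 to 4.87 FPKM in β-cateninΔ(ex3)/+ livers (difference 1.94). Of 4 further NK and cytotoxic genes tested, *S1pr5*, which lets NK cells leave tissues, rose by 2.36. Of these T cell and NK genes 0 fell by both thresholds in limma, and 2 of the T cell genes were lower at an adjusted p under 0.05 alone. Of 15 factors that recruit or sustain lymphocytes, 3 rose and 2 fell. *Cxcl13*, the chemokine that attracts B cells, had 0 to 0.213 FPKM in WT and 7.74 to 10.5 FPKM in β-cateninΔ(ex3)/+ livers (difference 3.14). *Cxcl9*, which attracts activated T cells, had 1.61 to 2.02 FPKM in WT and 16.8 to 17.7 FPKM in β-cateninΔ(ex3)/+ livers (difference 2.68). *Ccl2*, which attracts monocytes, rose by 1.44. *Cxcl12* and *Vcam1*, which hold B cell precursors in their niche, fell by 1.13 and 1.29. The medians over the tested genes of the 6 lists ranged from -0.29 for the B cell genes to 0.55 for the NK and cytotoxic genes, beside 0.14 over all genes tested.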

How the data were processed

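Trizol RNA of 6 livers was purified on oligo(dT) beads and sequenced from dUTP-stranded libraries; whether strand was used in counting is not stated. The authors deposited 1 table of FPKM, 1 column per liver. The submitters' processing notes name cutadapt 1.9, HISAT2 2.0.4, StringTie 1.3.4d, DESeq2 and edgeR; the genome build is not given in the sources used here, but 28911 of 31950 genes have the start and end of GENCODE M21 (GRCm38). FPKM are not counts, so log2(FPKM + 1) was compared in R 4.3.3 by limma 3.58.1 (lmFit, then eBayes with trend). Genes with a mean of at least 0.5 FPKM entered, with the study's thresholds (adjusted p under 0.05, 2-fold) and the groups in the sample labels. The code was also run on simulated counts with the same small dispersion for all genes, which does not test the calls in these livers. No counting intervals can be given.

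The genes and lists were chosen with earlier results of these data known. Genes past the thresholds or without overlap between groups are given by liver, and at most 4 in each direction from wider lists. Promoters are from RefSeq. The alternatives are given in the closing section. Each liver was kept as a sample because the study's methods give 3 livers per group. Over 1851 genes of higher level, the spread between replicates was 1.60 to 3.04 times that of counting alone. That ratio rests on the approximate depths and does not show that the replicates are independent. The median standard deviation was 4.49% of the mean in WT and 3.31% in β-cateninΔ(ex3)/+ livers, and the small adjusted p-values rest on this small spread. ChIP-seq was not analysed here. A further gene of the wider lists is not reported here.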

Additional observations from a re-analysis of the deposited data

How the results depend on the processing

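The 7 genes that rose and 4 that fell kept their calls, by name, with no expression filter, a mean of at least 1 FPKM, median-ratio scaling, quantile normalization, eBayes without trend, and the replicate block (7 and 4). Deviations from the group means were nearly uncorrelated between livers of the same replicate number (0.0268, 0.0213 and -0.00540). This cannot exclude a pairing, and the labels name none. Leaving out 1 liver gave 7 to 8 that rose and 4 that fell. A pseudocount of 0.1 gave 12 and 7, adding *Cd4*, *Cd8a*, *Gzmb*, *Lat* and *Thy1* above and *Blk*, *Ccr7* and *Vpreb1* below. A pseudocount of 0.1 with no filter, chosen after seeing the data, gave 15 and 15; a smaller pseudocount widens differences between low values by construction. Over all genes, 1082 rose and 598 fell, against 851 and 751 with median-ratio scaling and 797 and 812 with quantile normalization, with medians of 0.0081 and -0.020. Of 485 comparisons of single genes, 463 kept direction and call, 18 gained a call and 4 turned: *Cd22* with quantile normalization (-0.00107), *Sdc1* with median-ratio scaling (-0.071) and quantile normalization (-0.16), and *Ptprc* with 1 liver left out (-0.072 to 0.29). At an adjusted p under 0.05 alone, 18 higher and 10 lower became 15 and 10 with median-ratio scaling and 15 and 11 with quantile normalization. They became 17 and 9 with no filter and 16 to 17 and 6 to 10 with 1 liver left out. Without WT replicate 3 (16 and 6), *Blk*, *Ccr7* and *Vpreb1* dropped below the level for testing. A mean of at least 1 FPKM gave 15 and 6, and left *Blk*, *Ccr7*, *Cd4*, *Cd8a*, *Klrd1*, *Lat* and *Vpreb1* untested. The causes were not tested. Depth limits values under about 0.1 FPKM, where 1 to few fragments decide.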

Other observations

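The variable segments of the immunoglobulin genes, looked at after the constant genes had been seen, were higher in sum in every β-cateninΔ(ex3)/+ liver. The 107 heavy-chain segments (*Ighv*) summed to 5.08 to 7.46 FPKM in WT and 19.2 to 23.4 FPKM in β-cateninΔ(ex3)/+ livers, and the 99 κ segments (*Igkv*) to 10.98 to 14.3 and 52.5 to 57.9 FPKM. The 3 λ segments (*Iglv*) overlapped, at 2.04 to 3.75 and 2.05 to 3.71 FPKM. Of the 107 *Ighv* segments, 18 were higher and 2 lower in every β-cateninΔ(ex3)/+ liver, and of the 99 *Igkv* segments 26 and 1. Over the 26528 genes above 0 in any liver, 27.0% were higher and 17.8% lower. Segments at 0 were not removed from the 107 and 99. How the sums were spread over the segments was not tested. The β-cateninΔ(ex3)/+ libraries were shallower by the estimate. In a WT liver 19 to 35 *Ighv* segments were above 0, and in a β-cateninΔ(ex3)/+ liver 39 to 46. For *Igkv* the numbers were 26 to 43 and 51 to 62. *Igkv3-4* had 0.220, 0 and 0 FPKM in WT and 6.51, 5.80 and 6.38 FPKM in β-cateninΔ(ex3)/+ livers, and *Igkv10-96* had 0.503 to 1.46 and 4.66 to 5.24 FPKM. *Iglv1* had 1.45 to 2.44 and 1.43 to 2.56 FPKM. Segments of 1 family are similar in sequence, so the split of fragments among them is uncertain.

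The T cell receptor segments were much lower: 56 *Trav* segments summed to 0.114 to 0.340 FPKM in WT and 0.560 to 0.864 FPKM in β-cateninΔ(ex3)/+ livers, and 20 *Trbv* segments to 1.24 to 2.13 and 2.65 to 3.92 FPKM.

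Further genes listed at 0 in 1 group were *Gzmk*, a granzyme of memory T cells, with 0.460 to 0.5004 FPKM in the 3 β-cateninΔ(ex3)/+ livers and 0 in the WT livers, and *Klrb1a*, an NK receptor, with 0.0770 to 0.137 FPKM in WT livers and 0 in the β-cateninΔ(ex3)/+ livers; both were picked after their values were seen.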
